A study of Mus musculus with 6 samples.

Results

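The 10 genes studied were Hgf, Met, Pdgfa, Pdgfra, Pdgfrb, Fgf2, Fgf7, Fgfr1, Egfr and Kitl. They encode growth factors that act on fibroblasts or on other cell types, and receptor tyrosine kinases that bind such factors. The genes were taken by symbol from a table of 55401 genes, and all 10 were found there. The cells were NIH-3T3, an established mouse embryonic fibroblast line grown in medium with 10% fetal bovine serum. The unmutated line (genotype WT) gave 3 poly(A) RNA libraries, and a derivative whose genotype is labelled only as a mutation (MU) gave another 3. Apart from that genotype, the labels give the same line, medium and treatment ("Cultural") for both groups. They do not say which gene is mutated, whether MU is a single clone, or whether the replicates were grown separately. The p-values therefore reflect only how far these libraries scatter, and that scatter may be technical. A difference caused by the mutation and any other difference between the line and its derivative cannot be told apart. The comparison asks how the mutated cells differ from the line they came from.

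Growth factors of these families are released into the medium or held on the cell surface, and each binds the outer part of a receptor whose inner part is a tyrosine kinase. The bound receptors pair up, phosphorylate each other and recruit adaptor proteins that start the Ras-ERK and PI3K-AKT cascades. Fibroblasts respond to platelet-derived growth factor (PDGF) and fibroblast growth factors (FGFs) by entering the cell cycle. They are also a source of hepatocyte growth factor (HGF), FGF7 and stem cell factor for neighbouring epithelial, blood-forming and pigment cells.

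Of the ligand and receptor mRNAs tested, 3 fell in MU and 1 rose. The fallen ones were Hgf, Fgf2 and Fgfr1, and the one that rose was Fgf7. Levels are in TPM, a share of all transcripts that allows for transcript length, and a gene was tested if it reached 1 TPM in at least 3 libraries. Of the 10 genes, 9 were tested, and Egfr was not. A gene passed at a Benjamini-Hochberg adjusted p under 0.05 in limma, adjusted over all 14209 tested genes. Over all tested genes 18.8% passed, 7.12% as higher in MU and 11.6% as lower. The values of the groups did not overlap for 6 of the 9 members, 1 higher in MU and 5 lower, where 39.2% of all tested genes had such values (16.1% higher, 23.0% lower). The median log2 fold change was −0.35 over the 9 tested members and −0.05 over all tested genes. The members, and the lists below, were chosen with earlier results of these data known. Their counts and medians beside those of all genes are therefore descriptions only. In these bulk libraries, fewer cells making an mRNA and less of that mRNA per cell cannot be told apart.

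The bases before the annotated start of the member with the largest fall and of the member that rose are shown here, since these genes moved in opposite directions. The windows are the 250 bases upstream of a RefSeq start on build GRCm38.p6, plus strand, 5′ to 3′, with CG dinucleotides in capitals. The RefSeq table holds 2 windows for Hgf and 1 for Fgf7. For Hgf the window at the annotated gene start was taken, and the other was neither shown nor searched. Hgf lies at chr5:16553245-16553494 and Fgf7 at chr2:126034408-126034657.
Hgf: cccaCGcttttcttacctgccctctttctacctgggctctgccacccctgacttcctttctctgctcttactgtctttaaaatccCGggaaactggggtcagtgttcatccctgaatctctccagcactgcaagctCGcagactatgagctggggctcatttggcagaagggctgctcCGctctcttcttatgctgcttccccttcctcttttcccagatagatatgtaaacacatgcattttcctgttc
Fgf7: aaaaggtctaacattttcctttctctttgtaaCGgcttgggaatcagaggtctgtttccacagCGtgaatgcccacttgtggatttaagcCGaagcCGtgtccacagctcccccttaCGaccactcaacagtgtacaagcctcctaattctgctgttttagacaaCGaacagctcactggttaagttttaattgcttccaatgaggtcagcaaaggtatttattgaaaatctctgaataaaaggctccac
The Hgf window held 4 CG dinucleotides and the Fgf7 window 6, where the median over all 32851 windows of the RefSeq table was 6. Both windows were searched on both strands for 4 motifs, and 0 matches were found in either. The AP-1 motif, spelled TGANTCA, is held by 6.75% of all windows of this length. The GC box, spelled GGGCGG, is held by 32.7% of them. The TATA motif, spelled TATAAA, is held by 12.4%, and the CArG box by 1.47%. No match says only that these letters are not in these windows.

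The cells carried the label's fibroblast identity in both groups. Of 9 fibroblast markers, 8 were at 1 TPM or more in every library, and their summed level was 8585 to 9871 TPM in WT against 11212 to 11715 TPM in MU. Lum, the remaining marker, was at 0.812 to 1.68 TPM in WT and at 0 to 0.162 TPM in MU. Of the 8, Col1a1, Col1a2, Thy1, Fn1 and Ddr2 rose in MU (limma adjusted p 0.00062 to 0.0134), and Col3a1, Vim and S100a4 did not pass. The summed level of 7 epithelial markers was at most 2.16 TPM in any library, with Cldn3 and Cldn4 at 0 in all 6. That of 8 leukocyte and endothelial markers was at most 6.59 TPM, with Adgre1 at 0, and that of 7 muscle and adipocyte markers at most 0.626 TPM, with Myod1, Myog and Lep at 0. Of the leukocyte and endothelial markers, only Cd68 was at 1 TPM or more in every library. It was at 1.75 to 3.13 TPM in WT and 2.99 to 5.61 TPM in MU, and did not pass (limma adjusted p = 0.147). Cdh5, which encodes an endothelial cadherin, fell (limma adjusted p = 0.0186). Its level was 1.33, 2.82 and 1.32 TPM in WT and 0.0919, 0.114 and 0.1096 TPM in MU. Pecam1 and Tie1, the other endothelial markers, were under 1 TPM in every library. What part these marker differences have in the results was not tested. Libraries correlated at 0.949 to 0.966 within WT, at 0.971 to 0.976 within MU and at 0.937 to 0.945 between groups (Pearson over tested genes, which are not independent replicates). WT replicates 2 and 3 stood furthest apart in how their values followed GC content, with Spearman correlations of 0.33 and −0.25. Values that hinge on WT replicate 2 are given below with and without it. Leaving it out also raised the calls over all tested genes, from 1012 higher and 1655 lower to 1153 higher and 2238 lower.

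**Figure D1:**
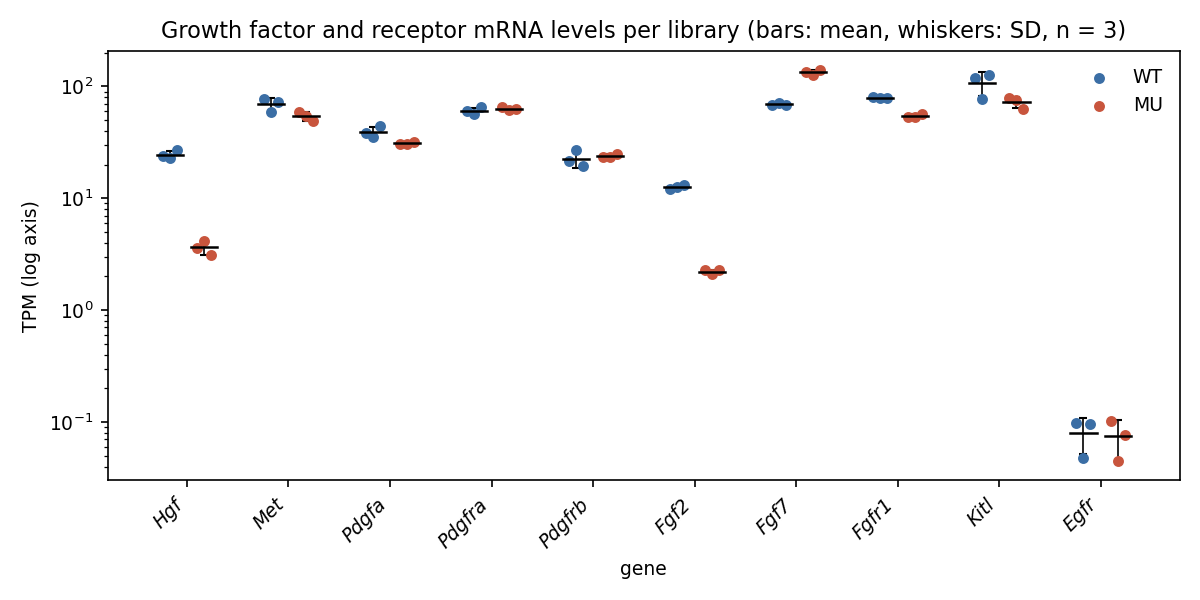
Level of each growth factor and receptor mRNA in TPM on a log axis, 1 point per library, for WT and MU (short bars: mean, whiskers: SD, n = 3). Hgf and Fgf2 lie far lower in MU, Fgf7 lies higher, and Egfr is at about 0.1 TPM or less in every library.

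The HGF mRNA fell, while that of its receptor did not pass the test. Hgf (ENSMUSG00000028864.7, chromosome 5, 16553495 to 16620152, plus strand, GRCm38) encodes the ligand, a scatter and growth factor made by mesenchymal cells. Its level was 24.1, 22.8 and 26.9 TPM in WT replicates 1 to 3 and 3.62, 4.18 and 3.11 TPM in MU replicates 1 to 3. Every MU library lay far below every WT library. Hgf fell from 24.6 ± 2.10 to 3.64 ± 0.535 TPM (mean ± SD, n = 3; log2 fold change −2.47, SE 0.13, limma adjusted p = 0.000226). The ratio of the TPM means was 6.75. Gm43489, on the same strand, shares 484 of the 7186 exonic bases of Hgf, and strand does not separate their reads there. It was at 1.12 ± 0.270 TPM in WT against 0.366 ± 0.375 TPM in MU and was not tested. Of all tested genes, 0.894% passed with a change of at least 4-fold on the log2(TPM + 1) scale in either direction, and Hgf and Fgf2 were among them.

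Met (ENSMUSG00000009376.15, chromosome 6, 17463800 to 17573980, plus strand) encodes the HGF receptor. Its level was 77.0, 59.3 and 72.4 TPM in WT and 58.5, 53.99 and 49.6 TPM in MU. The groups did not overlap, although WT replicate 2 lay next to MU replicate 1. The log2 fold change of −0.35 (SE 0.12, 95% interval −0.65 to −0.06) missed the threshold (limma adjusted p = 0.0947). With WT replicate 2 left out it passed (limma adjusted p = 0.0212) and after a correction for GC content and length (0.0439). The Hgf to Met ratio of TPM was 0.312, 0.383 and 0.371 in WT and 0.0618, 0.0774 and 0.0627 in MU, so that receptor mRNA outweighed ligand mRNA in all 6 libraries and by more in MU. HGF is secreted as an inactive chain that proteases cut. Hgfac, Hpn and St14 encode such proteases, and Spint1 and Spint2 encode inhibitors of them. Each of these genes had a mean under 1 TPM in both groups. Other proteases that may cut HGF were not examined.

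The FGF genes changed in both directions. Fgf2 (ENSMUSG00000037225.13, chromosome 3, 37348346 to 37410108, plus strand) encodes basic FGF, a mitogen of fibroblasts that binds FGFR1 among other receptors. It stood at 12.0, 12.7 and 13.1 TPM in WT and at 2.27, 2.11 and 2.27 TPM in MU. The spread within each group was small beside the gap between them. The fall from 12.6 ± 0.521 to 2.21 ± 0.0925 TPM was a log2 fold change of −2.08 on the TPM + 1 scale (SE 0.11, limma adjusted p = 0.000262). The ratio of TPM means was 5.69. Exons of Nudt6 on the other strand share 640 of the 6782 exonic bases of Fgf2, and no source used here states whether reads were assigned by strand, although the library kit keeps strand. Without assignment by strand, reads of either gene in the shared bases cannot be told apart. Nudt6 was at 4.94 ± 2.35 TPM in WT against 6.72 ± 0.551 TPM in MU and did not pass (limma adjusted p = 0.307).

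Fgf7 (ENSMUSG00000027208.14, chromosome 2, 126034658 to 126091185, plus strand) encodes keratinocyte growth factor, which mesenchymal cells make and which acts on epithelial cells through a splice form of FGFR2. It was at 68.3, 71.1 and 68.8 TPM in WT and at 135, 128 and 139 TPM in MU. All MU libraries lay above all WT libraries. Fgf7 rose from 69.4 ± 1.46 to 134 ± 5.73 TPM (log2 fold change 0.94, SE 0.07, limma adjusted p = 0.000899). It had the highest level of the 10 in MU.

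Fgfr1 (ENSMUSG00000031565.18, chromosome 8, 25513654 to 25575718, plus strand) encodes the main FGF receptor of mesenchymal cells. It was at 79.8, 78.2 and 79.0 TPM in WT and at 52.9, 52.9 and 57.2 TPM in MU, with no overlap. Fgfr1 fell, with a log2 fold change of −0.53 (SE 0.08) at a limma adjusted p of 0.00562. Fgfr1 lies among genes that were lower as a group: of its 40 nearest tested protein-coding neighbours, 90% had a lower mean log value in MU, with a median log2 fold change of −0.31. Centring on those neighbours left −0.28 for Fgfr1 and ended the call (limma adjusted p = 0.0511). For Hgf, 80% of the neighbours were lower, with a median of −0.29. For Fgf2 these values were 65% and −0.13, and for Fgf7 50% and −0.01. After the same centring Hgf, Fgf2 and Fgf7 still passed.

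**Figure D2:**
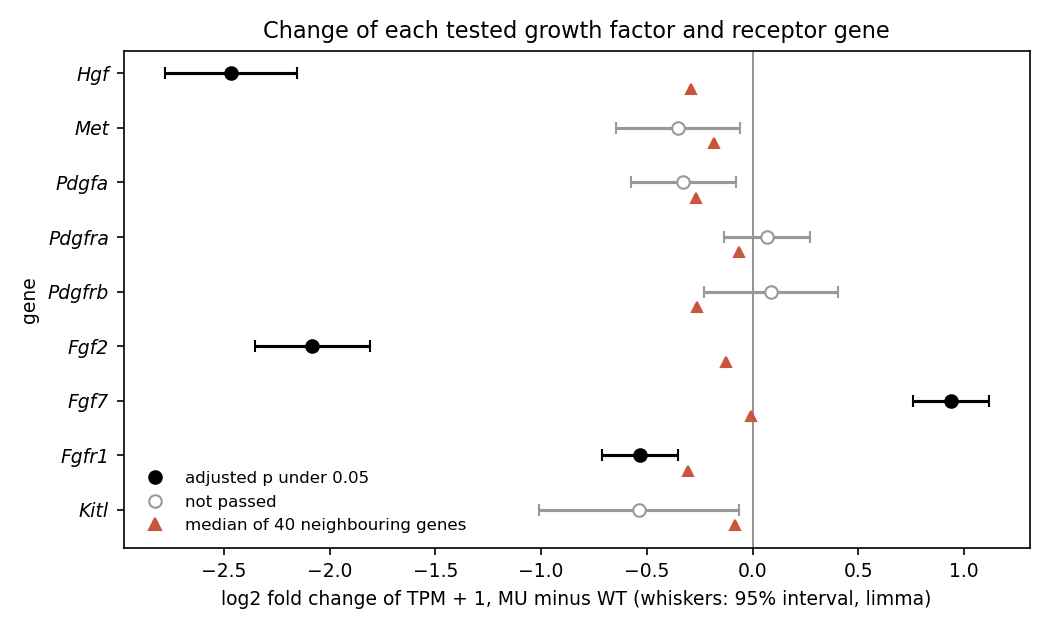
Log2 fold change of TPM + 1 (MU minus WT) of the 9 tested genes with its 95% interval from limma, filled where the adjusted p was under 0.05, and a triangle for the median of the 40 neighbouring genes. Hgf and Fgf2 lie more than 2 log2 units below 0 while their neighbours' medians lie at −0.29 and −0.13.

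Fgfr2, which encodes the receptor FGFR2, a splice form of which FGF7 uses, rose as well. Its level was 14.6, 13.7 and 14.7 TPM in WT and 32.5, 33.5 and 29.8 TPM in MU (log2 fold change 1.10, SE 0.09; limma adjusted p = 0.00101). The comparison of Fgfr2 with Fgfr1 was chosen after its values were seen. Fgfr2 made up 15.5%, 14.9% and 15.7% of the summed Fgfr1 and Fgfr2 TPM in WT against 38.1%, 38.8% and 34.3% in MU. The sum itself was 94.4, 91.9 and 93.7 TPM in WT and 85.4, 86.4 and 87.0 TPM in MU. The table gives a single value per gene, so the splice forms of FGFR2 that differ in ligand binding were not separated. Esrp1, an epithelial splicing factor that favours the form bound by FGF7, was at 0.0434 TPM in WT replicate 3 and at 0 in the other libraries.

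Ratios between the FGF ligands and receptors separated the groups. The Fgf2 to Fgfr1 ratio was 0.151, 0.163 and 0.165 in WT and 0.0429, 0.0398 and 0.0396 in MU. The Fgf7 to Fgfr1 ratio was 0.856, 0.908 and 0.871 in WT and 2.55, 2.41 and 2.43 in MU. FGF7 acts through a splice form of FGFR2, so this ratio does not set a ligand against the receptor named for it above. Its separation follows from the rise of Fgf7 and the fall of Fgfr1. The Fgf7 to Fgfr2 ratio, chosen after its values were seen, was 4.68, 5.19 and 4.69 in WT and 4.14, 3.81 and 4.66 in MU. Its groups were separated only by the small gap between 4.68 and 4.66. These ratios are descriptions of mRNA levels and were not tested.

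**Figure D3:**
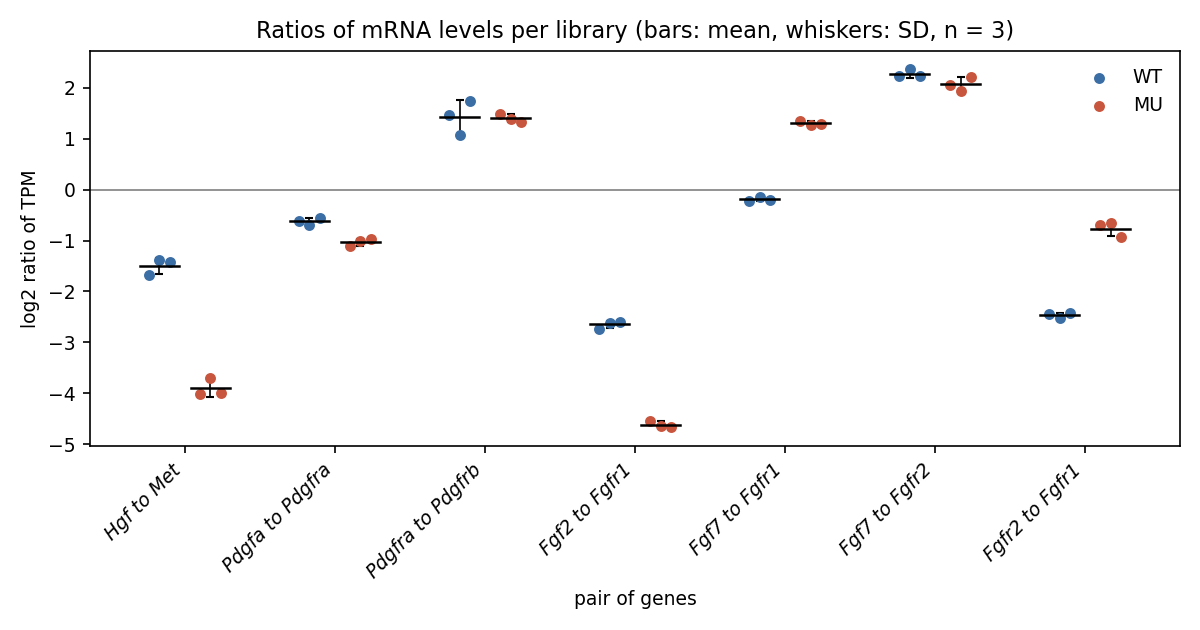
Log2 ratio of TPM for pairs of genes, 1 point per library (short bars: mean, whiskers: SD, n = 3); the line at 0 marks equal levels. The Hgf to Met and Fgf2 to Fgfr1 ratios are lower in MU, the Fgf7 to Fgfr1 and Fgfr2 to Fgfr1 ratios are higher, and Pdgfra to Pdgfrb overlaps between groups. The ratios with Fgfr2 were chosen after their values were seen.

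Of the other FGF genes, Fgfrl1, a receptor relative without a kinase domain, fell from 31.6 ± 5.28 to 20.4 ± 2.44 TPM (limma adjusted p = 0.0374). That call was lost under 11 of 18 alternative settings, among them leaving out any 1 library except WT replicate 3 (adjusted p 0.0614 to 0.123). Fgf10, another mesenchymal ligand of FGFR2, was at 13.6 ± 1.71 TPM in WT against 9.84 ± 0.70 TPM in MU and did not pass (limma adjusted p = 0.06), but passed with WT replicate 2 left out (0.0221) and also after centring on its neighbours (0.0481) or correcting for GC content and length (0.0232). Fgf1 and Fgf22 had means under 1 TPM in both groups.

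The PDGF genes gave no call. Pdgfa (ENSMUSG00000025856.15, chromosome 5, 138976014 to 138997370, minus strand) encodes the PDGF-A chain, which binds PDGFRA. It was at 38.7, 35.2 and 44.0 TPM in WT and at 30.3, 30.4 and 32.2 TPM in MU. The groups did not overlap, but the log2 fold change of −0.33 (SE 0.10, 95% interval −0.58 to −0.08) missed the threshold (limma adjusted p = 0.073), and met it once WT replicate 2 was left out (0.0266). Its 40 neighbours had a median log2 fold change of −0.27, and after centring on them the change of Pdgfa was −0.12. An antisense gene, 6330403L08Rik, shares 813 of the 3119 exonic bases of Pdgfa and was at 3.55 ± 0.838 TPM in WT against 3.35 ± 0.154 TPM in MU.

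Pdgfra (ENSMUSG00000029231.15, chromosome 5, 75152292 to 75198215, plus strand), a receptor for both PDGF-A and other chains, was at 59.7, 56.8 and 64.98 TPM in WT and at 65.4, 61.4 and 63.2 TPM in MU. Pdgfrb (ENSMUSG00000024620.11, chromosome 18, 61045150 to 61085061, plus strand), the receptor bound by PDGF-B, was at 21.7, 26.9 and 19.3 TPM in WT and at 23.4, 23.4 and 25.0 TPM in MU. Both overlapped between groups. Their log2 fold changes were 0.07 (95% interval −0.13 to 0.27, limma adjusted p = 0.628) and 0.09 (−0.23 to 0.40, 0.693). These intervals leave room for changes of up to 0.27 and 0.40 on the log2 scale, and do not show that the levels were alike. The Pdgfa to Pdgfra ratio was 0.648, 0.621 and 0.677 in WT and 0.464, 0.495 and 0.509 in MU, while the Pdgfra to Pdgfrb ratio was 2.11 to 3.36 in WT and 2.52 to 2.79 in MU. Pdgfb was listed at 0 in all WT libraries and at 0.281, 0.0265 and 0.0254 TPM in MU, and Pdgfd at 0 in all 6. Pdgfc was at 47.6 ± 8.25 TPM in WT against 41.4 ± 1.88 TPM in MU and did not pass (limma adjusted p = 0.414), except without WT replicate 2 (0.0292).

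Kitl (ENSMUSG00000019966.18, chromosome 10, 100015630 to 100100416, plus strand) encodes stem cell factor, which supports blood-forming, germ and pigment cells. It was at 120, 77.8 and 126 TPM in WT and at 79.0, 76.3 and 63.3 TPM in MU. WT replicate 2 lay within the MU range and the other WT libraries well above it. The log2 fold change was −0.54 (SE 0.20, limma adjusted p = 0.111). It was −0.75 and passed without WT replicate 2 (0.00999), and −0.44 with the GC and length correction (0.0271). The authors' deposited table, in which 21.1% of the genes with an adjusted p are under 0.05, gives −0.48 with an adjusted p of 0.0188. Kit, its receptor, reached at most 0.0750 TPM in any library, so the ligand mRNA was present in these cells without appreciable receptor mRNA.

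Egfr (ENSMUSG00000020122.16, chromosome 11, 16752203 to 16918158, plus strand) encodes the epidermal growth factor receptor. It was at 0.0972, 0.0478 and 0.0961 TPM in WT and at 0.102, 0.0449 and 0.0762 TPM in MU. The groups overlapped, and no library came near the 1 TPM needed for testing. Its family member Erbb2, a receptor with no known ligand of its own, was at 13.7, 16.4 and 13.4 TPM in WT and at 14, 13.5 and 17.3 TPM in MU, with overlap (limma adjusted p = 0.881). Erbb3, a neuregulin receptor, was at 0.770 ± 0.183 and 1.51 ± 0.124 TPM (0.114). The authors' deposited table calls Erbb3 higher, with a log2 fold change of 0.90 and an adjusted p of 0.00141.

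Of the EGFR ligands, Ereg, Hbegf and Btc fell. Ereg, which encodes epiregulin, was at 14.9, 10.4 and 17.8 TPM in WT and at 2.84, 3.30 and 2.70 TPM in MU. Its log2 fold change was −1.94 (SE 0.20) at a limma adjusted p of 0.0021. Hbegf, the heparin-binding EGF-like factor, was at 18.3, 23.1 and 20.2 TPM in WT and at 9.77, 9.13 and 10.5 TPM in MU. The corresponding change was −0.99 on the log2 scale (SE 0.12, limma adjusted p = 0.00339). Groups of either gene lay well apart. Btc, betacellulin, fell from 2.30 ± 0.728 to 0.603 ± 0.377 TPM (limma adjusted p = 0.0389), and this call was lost under 9 of 17 alternative settings, among them leaving out WT replicate 1 or 3 or any 1 MU library (adjusted p 0.0577 to 0.121). Egf was at 1.67 ± 0.761 TPM in WT against 3.24 ± 1.42 TPM in MU and did not pass (0.188). Areg, Tgfa and Epgn had means under 1 TPM in both groups.

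**Figure D4:**
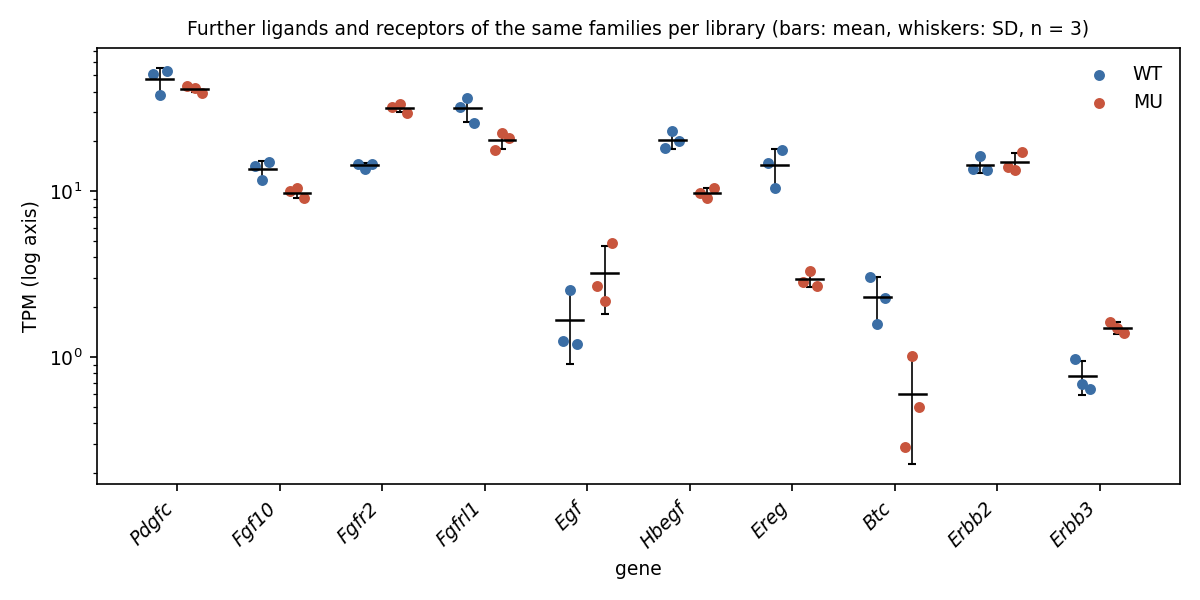
Level in TPM on a log axis, 1 point per library, of the 10 tested ligands and receptors that pair with the 10 genes or belong to their families (short bars: mean, whiskers: SD, n = 3). Fgfr2 and Erbb3 are higher in MU with no overlap between groups, while Hbegf, Ereg, Btc, Fgfrl1 and Fgf10 are lower with no overlap. Erbb3 and Fgf10 did not pass the test.

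Over this whole group of 23 cognate partners, 10 were tested, 1 rose (Fgfr2) and 4 fell (Fgfrl1, Hbegf, Ereg and Btc). Of all tested genes, 7.12% passed as higher and 11.6% as lower. The median log2 fold change of the tested partners was −0.30. The other 13 had a mean under 1 TPM in both groups.

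Among 60 further ligands and receptor tyrosine kinases, 26 were tested, 8 rose and 6 fell, with a median log2 fold change of −0.01. The shares over all tested genes were 7.12% higher and 11.6% lower. Ptn, pleiotrophin, a heparin-binding growth factor, rose from 82.4 ± 5.00 to 234 ± 3.41 TPM (2.84-fold, limma adjusted p = 0.000226). Ddr2, a collagen receptor kinase of fibroblasts, rose from 110 ± 2.09 to 173 ± 2.79 TPM (0.65, adjusted p = 0.00242). It lies among genes with a median of 0.33, and centring on them ended the call (limma adjusted p = 0.0518). Il34, a ligand of the CSF1 receptor, fell from 15.2 ± 2.01 to 3.74 ± 1.28 TPM (−1.81, limma adjusted p = 0.00363). Ror1, a receptor for Wnt5a, fell from 4.18 ± 0.662 to 1.37 ± 0.0643 TPM (−1.12, 0.00663). The others that rose were Nrg1, Csf1, Csf1r, Ddr1, Ryk and Styk1, and the others that fell included Axl, Mertk and Gdnf. The falls numbered 2 or 3 without any 1 MU library, and the rises 5 without MU replicate 2.

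Downstream of the receptors, 46 of 47 proximal signalling genes were tested, and 1 rose and 9 fell, with a median log2 fold change of −0.14. Over all tested genes 18.8% passed, 7.12% as higher in MU and 11.6% as lower. The 2 fallen genes of this list with the smallest adjusted p encode negative regulators of receptor tyrosine kinases. Lrig1, a membrane protein that promotes the turnover of EGFR family receptors and MET, fell from 22.5 ± 0.448 to 9.42 ± 0.426 TPM (−1.18, SE 0.09, limma adjusted p = 0.000764). Errfi1, an inhibitor of the EGFR kinase domain, was at 57.6, 60.4 and 60.4 TPM in WT and at 31.99, 31.8 and 32.2 TPM in MU (−0.87, SE 0.07, 0.0011). Frs2, the docking protein of FGF receptors, rose from 30.5 ± 4.26 to 47.6 ± 1.72 TPM (limma adjusted p = 0.0145). Without any 1 MU library it no longer passed, at adjusted p up to 0.0677. The other fallen genes encode the ubiquitin ligase Cblb, Lrig3, the adaptors Shc1 and Crkl, the phosphatase Ptpn11, and the kinases Map2k1 and Akt1. Falls in this list numbered 3 to 5 without WT replicate 1 or any 1 MU library, and 14 without WT replicate 2.

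The order of the 10 levels changed between the lines. In WT it ran from Kitl (108 ± 26.3 TPM) through Fgfr1, Met, Fgf7, Pdgfra, Pdgfa, Hgf, Pdgfrb and Fgf2 to Egfr. Neighbours whose libraries overlapped were Kitl and Fgfr1, Met and Fgf7, and Hgf and Pdgfrb. In MU it ran from Fgf7 through Kitl, Pdgfra, Fgfr1, Met, Pdgfa, Pdgfrb, Hgf and Fgf2 to Egfr, with overlap between Kitl and Pdgfra and between Fgfr1 and Met. Hgf stood above 61.3% of tested genes in WT and above 22.8% in MU, and Fgf2 above 44.7% and 15.7%.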

How the data were processed

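The submitters' processing notes name the build mm10 and list HISAT2, featureCounts 1.5.0-p3, DESeq2 1.20.0 and FastQC 0.11.4, without saying which step each served or how TPM was made. Per the file headers and values, the authors deposited log2(TPM + 1) per gene and library. Their comparison table gives group mean TPM, a log2 fold change, p-values and adjusted p-values, per the file headers. TPM keeps no depth, so depth is unknown and no counting interval was computed. The log2(TPM + 1) values entered a limma 3.58.1 fit (R 4.3.3, intensity trend, two-sided p-values), on 14209 genes with at least 1 TPM in 3 libraries. Low genes' changes are understated on this scale. Positions come from GENCODE M21 (GRCm38, the assembly of mm10), matched by identifier for 55141 genes, and promoters from RefSeq (GRCm38.p6). Members and lists were chosen with earlier results of these data known. Named genes are the members, partners with a mean of at least 1 TPM plus Kit, Pdgfb and Fgfr2, and in the other lists the 2 higher and 2 lower passing genes with the smallest adjusted p. Genes outside this rule appear within a count, as markers or overlapping genes, or were chosen after their values were seen. Alternatives covered the pseudocount, filter, trend, scaling, GC and length, position and each left-out library. The limma step was tested on simulated data. It recovered 2.78% of 72 changes of 0.5 log2 units, 45.2% of 62 of 1 unit and 90.9% of 66 of 2 units. Those were the only changed genes among 14209, far fewer than passed in the data. The adjusted threshold was thus stricter in the simulation, and these shares need not hold for the data. Missing the threshold does not by itself show that a level was unchanged. One gene counted among the further ligands and receptors is not reported here by name.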

Additional observations from a re-analysis of the deposited data

How the results depend on the processing

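With 9 tested members and 18 alternative settings, 155 of 162 values kept their direction and their side of the threshold. Hgf, Fgf2 and Fgf7 passed in all 18, with log2 fold changes of −2.73 to −1.77, −2.46 to −1.29 and 0.89 to 1.05. Members that fell numbered 5 with the GC and length correction (Met and Kitl added), and 3 to 6 when 1 library was left out, the 6 being without WT replicate 2. Lower calls over all tested genes also rose without WT replicate 2, from 1655 to 2238. Members that rose numbered 1 throughout. Same-numbered libraries did not deviate together (correlations 0.0495, 0.0154 and −0.0744). With so few libraries this cannot settle whether they were prepared together, and the labels do not say. With a replicate block, calls over all genes numbered 456 higher and 637 lower (1012 and 1655 without it), partners 2 lower, further ligands and receptors 3 lower, and proximal genes 0 higher and 3 lower.

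Other counts moved as follows; the cause was not tested. The partners gave 2 lower with no filter, 2 higher with limma without trend, and 2 higher in the authors' deposited table. When 1 library was left out they gave 2 to 5 lower. Further ligands and receptors gave 3 lower at a 5 TPM minimum, where fewer genes are tested, and 10 in the authors' table. When 1 library was left out they gave 5 to 9 higher and 2 to 7 lower. Proximal genes gave 3 higher with the GC and length correction, quantile normalization or the authors' table. They gave 2 with a 5 TPM minimum, median-of-ratios scaling, position centring or rescaling without mtDNA-encoded genes. When 1 library was left out they gave 0 to 2 higher and 3 to 14 lower. All genes gave 1577 higher with the GC and length correction and 1603 in the authors' table. When 1 library was left out they gave 427 to 1153 higher and 644 to 2238 lower. The share of calls that were higher was 37.9%, and 46.7% with the GC and length correction, 48.8% after quantile normalization, and 48.4% with median-of-ratios scaling or with mtDNA-encoded genes left out of the total.

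The sign turned for values that had not passed: Pdgfrb was −0.015 without WT replicate 3 (0.2145 without WT replicate 2 and 0.2972 with position centring), Pdgfc 0.04 with position centring, and Erbb2 −0.067 without MU replicate 3 and −0.0135 without WT replicate 3 (0.1215 without WT replicate 2). With ratios of TPM + 1, the log2 difference between MU and WT was −2.11 for Hgf to Met (−2.40 without the added 1) and −1.55 for Fgf2 to Fgfr1 (−1.97). Depth is unknown, so how precisely Egfr, Kit and Pdgfb are measured cannot be stated.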
